A study of Mus musculus with 6 samples.

Results

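The translation initiation factor genes were taken as every gene of the UMI count table whose symbol began with Eif1 to Eif6, without Eif2s3x and Eif2s3y, which gave 53 of 17418 genes. A UMI (unique molecular identifier) marks 1 captured transcript, so that copies of it made by PCR are counted once. The counts came from InDrop single cell RNA-Seq of the cortex at postnatal day 5, from 3 WT mice (strain FVB.129P2-Pde6b+ Tyrc-ch/AntJ) and 3 Fmr1-KO mice (FVB.129P2-Pde6b+ Tyrc-ch Fmr1tm1Cgr/J), of both sexes by the study's methods. The labels give no treatment, and the KO is constitutive, so that no cell of a KO mouse makes FMRP, an RNA-binding protein that represses translation. The cells fell into 2 collection batches that used different versions of the barcoding beads, batch 1 with WT 1, KO 1 and KO 2 and batch 2 with WT 2, WT 3 and KO 3.

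Initiation assembles a ribosome at the start codon of an mRNA. eIF2 brings the initiator tRNA to the small ribosomal subunit, eIF1 and eIF1A keep that subunit open for scanning, the many-subunit eIF3 holds the complex together, and the cap complex (eIF4E on the cap, the scaffold eIF4G and the RNA helicase eIF4A) loads it onto the mRNA. Control acts mainly on 2 of these steps. Kinases that phosphorylate eIF2 block its recycling by eIF2B, and the eIF4E-binding proteins keep eIF4E away from eIF4G until mTORC1 phosphorylates them. By role, 11 members were grouped under scanning, start codon choice and the eIF2 complex. That group is broad and also took in Eif1ad, Eif2a, Eif2d and Eif5b, which do not encode subunits of eIF2. Another 9 members were of eIF2B and the eIF2 kinases, 14 of eIF3 and 11 of the cap complex and helicase. The rest were 5 repressors that bind eIF4E or the cap and 3 late or 60S factors. Among the repressors was Eif4e2, a cap-binding protein that does not recruit eIF4G.

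After 1113 cells that the authors marked as doublets were left out, 17280 cells in 17 libraries remained, 2027 to 3682 cells and 7909181 to 20629134 UMIs per mouse. Depth per cell differed between batches most in excitatory neurons, with median UMIs per cell of 976 to 1041.5 in the batch 1 mice and of 2005 to 8588 in the batch 2 mice. Libraries of the same mouse shared 34 to 393 cell barcodes per pair against 0 to 23 for libraries of different mice, and 94.4% of the 1854 barcodes found in 2 or more libraries of a mouse carried the same subtype name in all of them. The tests below were therefore also run with 1 copy per mouse and barcode, which left 14836 cells, and no count of members called moved by more than 1.5 times. Of 54 marker genes, 49 were highest in the subtype they mark. The targeted gene was lower in KO cells of both populations in which it could be tested. Fmr1 was at 82.3, 80.3 and 80.1 CPM (UMIs of the gene per 1000000 UMIs of the sum) in WT and at 17.7, 18.1 and 18.3 CPM in KO Astrocytes_1 (log2 fold change -2.15, adjusted p = 7.7e-05 by edgeR), and at 72.8, 89.6 and 123 CPM in WT against 28.1, 26.2 and 24.2 CPM in KO OPC_1 (-1.78, adjusted p = 0.00416). The OPC_1 call was lost without WT 3 (-1.62), KO 1 (-1.87) or KO 3 (-1.42).

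The helicase pair Eif4a1 and Eif4a2 held the smallest p of the members in 4 of the 7 contrasts between subtypes below, so the DNA before each start is given here. Eif4a1 lies on the minus strand of chromosome 11, from 69666936 to 69672423, and Eif4a2 on the plus strand of chromosome 16, from 23107444 to 23114136 (GRCm38, GENCODE). The 200 bases shown run from 250 to 51 bases before the RefSeq start (GRCm38.p6), 5′ to 3′ on the strand of the gene, for Eif4a1 at chr11:69672474-69672673 and for Eif4a2 at chr16:23107218-23107417. Capitals mark CACGTG, the E-box bound by MYC, MAX and USF proteins, which reads the same on both strands.
Eif4a1: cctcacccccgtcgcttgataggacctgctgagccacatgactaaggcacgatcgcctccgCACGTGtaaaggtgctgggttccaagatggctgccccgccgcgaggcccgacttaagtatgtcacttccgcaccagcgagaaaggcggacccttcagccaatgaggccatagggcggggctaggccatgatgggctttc
Eif4a2: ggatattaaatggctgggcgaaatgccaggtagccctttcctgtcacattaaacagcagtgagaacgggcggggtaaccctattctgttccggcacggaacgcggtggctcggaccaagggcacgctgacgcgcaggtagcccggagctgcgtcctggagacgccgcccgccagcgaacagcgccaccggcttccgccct
The Eif4a1 window held the motif once, 189 bases before the start, and the Eif4a2 window did not hold it. The motif stood in 4.34% of the 32851 windows of that length in the mouse table, and in 8 of the 54 windows of members. A gene could have several windows, and Eif5a had 6, of which 3 held the motif. By gene, 6 of the 41 members that had a RefSeq window held it. A match describes the letters and not a bound site. The GC content of the windows was 61.5% for Eif4a1 and 63.5% for Eif4a2.

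To see where initiation factor transcripts were most abundant, UMIs were summed per mouse and subtype and expressed as CPM. These are counts of transcript ends and not of reads per length, so that each gene was compared with itself across subtypes. Ganglionic cells, the inhibitory precursors of the ganglionic eminence, stood at the top. There all members together took 11392 ± 946 CPM (SD, n = 6 mice), with a range of 10373 to 12509. Oligodendrocytes followed at 9921 ± 753 CPM, interneurons at 9814 ± 618 CPM and microglia at 9776 ± 651 CPM, 3 neighbours whose means differed by less than 1 SD. Excitatory neurons at 7714 ± 1163 CPM, Astrocytes_2 at 7779.9 ± 523 CPM and Astrocytes_1 at 7562 ± 485 CPM were lowest of the 10 subtypes with 100 or more cells per genotype. The excitatory sum split by batch, with 6784, 6979 and 6271 CPM in the batch 1 mice and 8542, 8852 and 8853 CPM in the batch 2 mice. In excitatory neurons 26 of 49 members had every batch 1 mouse below every batch 2 mouse and 5 above, and in Astrocytes_1 22 below and 8 above. Such splits were not counted over all genes, so that these counts do not set the members apart. Batch and bead version cannot be told apart here. Depth per cell followed batch in excitatory neurons but not in Astrocytes_1. There the median UMIs per cell were 3860.5, 4113 and 2225 in WT 1, KO 1 and KO 2, and 2114.5, 7113 and 5163 in WT 2, WT 3 and KO 3. The part of depth in these splits was not tested.

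Ganglionic cells had the highest mean of the 10 subtypes for 18 of the 49 members with enough UMIs for the fit, and the lowest for 0. Astrocytes_1 had the lowest mean for 13 members and excitatory neurons for 10. Where all other genes had their highest or lowest mean was not counted, so that these counts have no background. Ganglionic cells also held the most transcripts of dividing cells. The sum of Mki67, Top2a, Ccnb1, Cdk1 and Birc5 was 3315 CPM there (2888 to 3877 over mice), against 83.6 CPM in excitatory neurons (7.35 to 251), 50.9 CPM in interneurons, 897 CPM in OPC_1 and 1160 CPM in microglia. The part of these dividing cells in the members' levels was not tested.

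**Figure D1:**
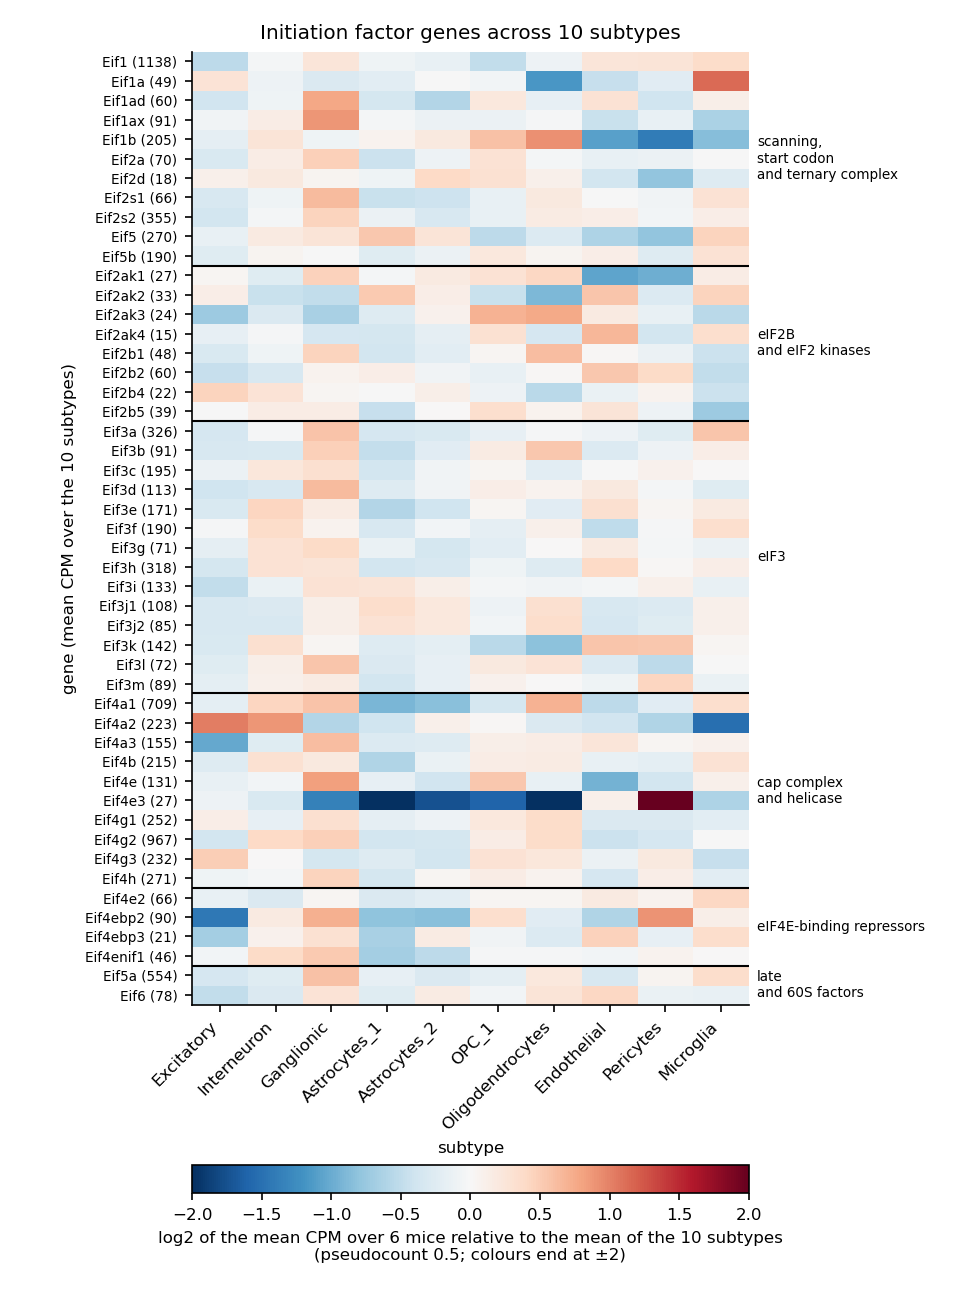
Levels of the 49 members in 10 subtypes, as log2 of the mean CPM over 6 mice (with 0.5 added) relative to the mean of the 10 subtypes, in rows by role with the mean CPM in brackets. The Ganglionic column is red in most rows, Eif4a2 is strongly red in the Excitatory and Interneuron columns, and Eif4e3 is darkest in Pericytes.

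Across the series Eif1, which monitors start codon choice, was the most abundant member, at 1087 ± 132 CPM over all cells. Eif4e1b, a germline relative of eIF4E, was the least abundant, with 3 UMIs in all cells. Eif1 was highest in microglia, at 1465 ± 200.4 CPM, and its paralog Eif1b in oligodendrocytes, at 385 ± 71.7 CPM, and OPC_1, at 308 ± 15.5 CPM. Eif1b made up 27.6% ± 0.966 of the UMIs of this pair in OPC_1 and 5.5% ± 1.61 in pericytes. Reads with several genomic positions were ignored by the authors' counting, so that the level of Eif1, Eif4a1 and Eif5a, which have processed pseudogenes, is uncertain.

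The eIF1A genes Eif1a and Eif1ax also split by subtype. Eif1a was at 108 ± 17.6 CPM in microglia and at 21.8 ± 15 CPM in oligodendrocytes. Eif1ax was at 168 ± 29.6 CPM in Ganglionic cells and at 58.1 ± 18.9 CPM in microglia. Eif1ax therefore supplied 80.7% ± 5.93 of the UMIs of the pair in Ganglionic cells, 59.4% ± 3.91 in excitatory neurons and 34.2% ± 6.75 in microglia.

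Of the eIF4G scaffolds, Eif4g2 (a relative that lacks the eIF4E-binding part) was the most abundant by UMIs. It was at 1351 ± 194 CPM in Ganglionic cells, 1276 ± 162 CPM in interneurons and 751 ± 179.8 CPM in excitatory neurons. Eif4g1 varied little next to its spread over mice, from 206 ± 83.2 CPM in pericytes to 325 ± 84.8 CPM in oligodendrocytes. Eif4g3 was highest in excitatory neurons, at 314, 298 and 329 CPM in the WT and 334, 336 and 356 CPM in the KO mice. The 6 excitatory values lay above all 6 of interneurons (203 to 264 CPM) and of Ganglionic cells (161 to 223 CPM).

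Among the cap-binding proteins, Eif4e was at 231 ± 36.6 CPM in Ganglionic cells and 190.0 ± 26.2 CPM in OPC_1, and at 67.9 ± 20.8 CPM in endothelial cells. Eif4e3, which binds the cap in another way than eIF4E does, was at 108, 146 and 181 CPM in WT and 105, 126 and 169 CPM in KO pericytes. In endothelial cells, the next highest subtype, it was at 21, 25.9 and 27.6 CPM in WT and 29.5, 28.7 and 38.6 CPM in KO mice. All pericyte values lay above all endothelial ones. Genotype was not tested for this gene in endothelial cells. In Astrocytes_1 it was at 2.51 ± 1.18 CPM. In the annotation the whole Eif4e3 gene lies inside Gm20696, a gene on the same strand, and reads of both cannot be told apart in these counts. Eif4e2 ranged from 54.1 ± 8.5 CPM in interneurons to 88.7 ± 33.9 CPM in microglia.

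The eIF4E-binding proteins each had another order of subtypes. Eif4ebp2, the main member in brain, was highest in pericytes (168 ± 64.6 CPM) and Ganglionic cells (148 ± 25.2 CPM), which did not differ beyond their spread, and lowest in excitatory neurons (32.9 ± 10.4 CPM). Eif4ebp1 was at 40.9 ± 10.2 CPM in microglia, 36.5 ± 22.2 CPM in pericytes and 36 ± 16.1 CPM in endothelial cells, and at 3.25 ± 0.987 CPM in excitatory neurons and 2.74 ± 4.45 CPM in interneurons. Eif4ebp3 was at 29 ± 10.9 CPM in endothelial cells and 12.8 ± 3.01 CPM in excitatory neurons, and its exons are shared with a same-strand readthrough transcript.

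Each of the 4 eIF2 kinases was low. Over all cells Eif2ak2 (PKR, activated by double-stranded RNA) was at 39.6 ± 4.8 CPM, Eif2ak1 (HRI, the heme-regulated kinase) at 26.1 ± 4.06 CPM, Eif2ak3 (PERK, the kinase of the endoplasmic reticulum) at 21.6 ± 3.73 CPM and Eif2ak4 (GCN2, the sensor of uncharged tRNA) at 14.4 ± 1.55 CPM. Eif2ak3 was highest in the oligodendrocyte lineage, at 41 ± 15.6 CPM in oligodendrocytes and 39 ± 10.2 CPM in OPC_1, against 14.3 CPM in excitatory neurons. Eif2ak2 in excitatory neurons split by batch, with 51.5, 55.3 and 90.4 CPM in WT 1, KO 1 and KO 2 and 8.68, 8.65 and 4.82 CPM in WT 2, WT 3 and KO 3. In Astrocytes_1 its 6 values lay between 43 and 62.7 CPM with no such split.

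The remaining pairs were those of eIF5A and of an eIF3 subunit. Eif5a, the hypusinated factor that also acts in elongation, was at 835 ± 64.7 CPM in Ganglionic cells and 437 ± 127 CPM in excitatory neurons. Its paralog Eif5a2 was at 25.5 ± 13.3 CPM in oligodendrocytes, 20.4 ± 6.7 CPM in excitatory neurons and 3.32 ± 1.86 CPM in endothelial cells. The nearly identical Eif3j1 and Eif3j2, which encode a loosely bound eIF3 subunit, followed each other, with 138 ± 4.54 and 103 ± 2.28 CPM in Astrocytes_1 and 86.1 ± 14.7 and 67.1 ± 11.5 CPM in endothelial cells. How their reads were divided is uncertain.

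To test which members differed between subtypes of a lineage, 7 contrasts were fitted with edgeR's quasi-likelihood test on the sums of the 6 mice, with the mouse as a block, over 8971 genes. A gene was called at a Benjamini-Hochberg adjusted p below 0.01 and a difference of at least 1.5-fold. Differences are on the log2 scale, where 1 is a 2-fold difference, and are given with their SE. The subtypes were clustered by the authors on the expression of these same cells, so that the p-values describe how a difference repeated over mice.

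Excitatory neurons had lower levels of many initiation factors than Ganglionic cells, and higher levels of 4. Of 49 members 19 were lower (25.3% of all genes were called lower) and 4 higher (29.4% of all genes), and the median difference was -0.42 for members against 0.07 for all genes. The lower members came from scanning and eIF2 (6 of 11), eIF3 (5 of 14, with 13 of 14 estimates below 0), the cap complex (4 of 10), the repressors (2 of 4) and the late factors (2 of 2). Over all genes 4218 of 8971 estimates were below 0. No member of eIF2B and the kinases was called (0 of 8). Each of the 23 calls had the same direction within both batches by the mean, and 22 had it in all 6 mice. The calls were made on these same mice, and the like counts over all genes called were not made. With each cell thinned to 700 UMIs, a step that lowers the counts of every gene, 11 members were called in place of 23. Calls over all genes with thinned cells are not given here.

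Eif4a2 led the higher members. It was at 377, 508 and 583 CPM in WT and 417, 341 and 512 CPM in KO excitatory neurons, and at 148, 173 and 151 CPM in WT and 175, 131 and 117 CPM in KO Ganglionic cells. All 6 excitatory values lay above all Ganglionic ones (1.76 ± 0.13, adjusted p = 5.6e-19 by edgeR). Eif4g3 (0.97 ± 0.10, adjusted p = 2.5e-13) and Eif4e3 (1.35 ± 0.35, adjusted p = 0.00059) followed. Eif1a was called as well (0.65 ± 0.19, adjusted p = 0.0026), but not without WT 2 (0.57), KO 1 (0.58) or KO 3 (0.40), nor with cells thinned to equal UMIs (0.23).

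The members that were lower in excitatory neurons were led by Eif4a3, the helicase of the exon junction complex that acts after splicing and not in initiation itself. It was at 48.4, 101 and 109 CPM in WT and 70.1, 39.6 and 89.1 CPM in KO excitatory neurons, and at 188, 226 and 302 CPM in WT and 209, 225 and 285 CPM in KO Ganglionic cells. The groups of mice did not overlap (-1.59 ± 0.12, adjusted p = 1.6e-17 by edgeR). Eif4ebp2 had the largest negative difference, from 148, 128 and 179 CPM in WT and 126, 179 and 129 CPM in KO Ganglionic cells to 51.5, 25.5 and 22.9 CPM in WT and 35, 35 and 27.3 CPM in KO excitatory neurons (-2.04 ± 0.18, adjusted p = 2.2e-15). The scaffold Eif4g2 (-0.74 ± 0.08) and the largest eIF3 subunit, Eif3a (-0.77 ± 0.10), were next by p. Eif4a1 was lower as well (-0.68 ± 0.10), so that the helicase paralogs differed in opposite directions between these subtypes.

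**Figure D2:**
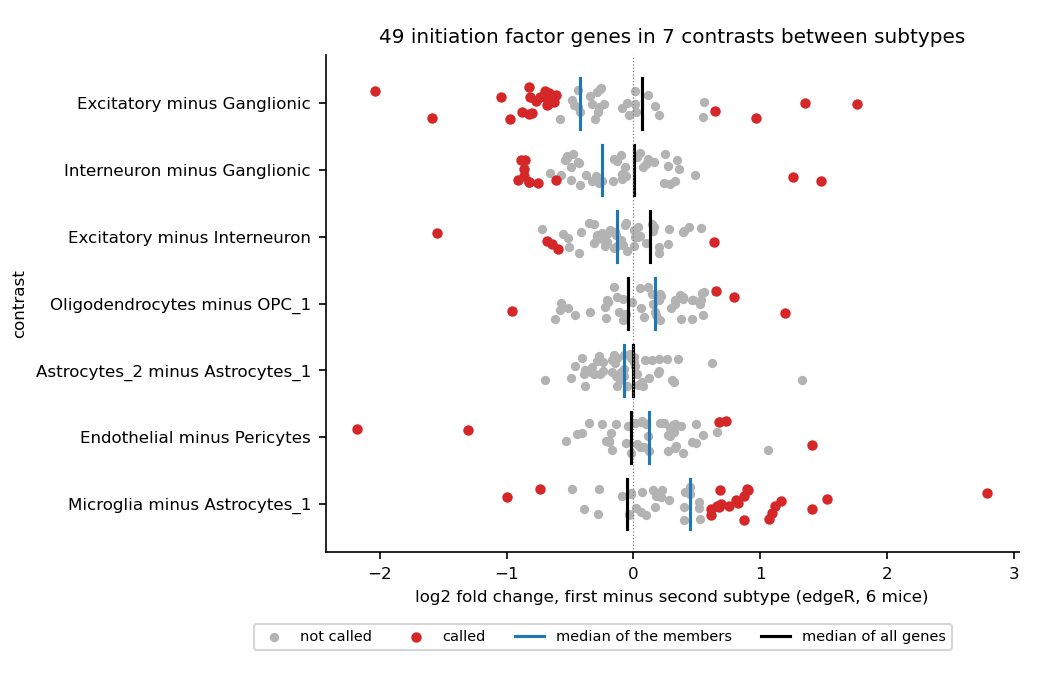
The 49 members (points) in 7 contrasts, as log2 fold change of the first over the second subtype from edgeR, red where called, with the median of the members in blue and of all 8971 genes in black. The members' median lies at -0.42 for Excitatory minus Ganglionic and at 0.44 for Microglia minus Astrocytes_1, and no point is red for Astrocytes_2 minus Astrocytes_1.

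Interneurons also had more Eif4a2 than Ganglionic cells, and less of several other members. Of 49 members 9 were lower (16.8% of all genes) and 2 higher (17% of all genes), with a member median of -0.25 against 0.01 for all genes. The share that was lower was thus near the background, and with cells thinned to equal UMIs 3 members were called in place of 11. Eif4a2 was at 413, 355 and 443 CPM in WT and 453, 344 and 465 CPM in KO interneurons (1.48 ± 0.13, adjusted p = 6.9e-15 by edgeR). Eif4e3 was higher (1.26 ± 0.38), a call that was lost without WT 1 (1.01), KO 1 (1.08) or KO 3 (1.41). Eif5a (-0.86 ± 0.12), Eif4a3 (-0.91 ± 0.13), Eif4e (-0.86 ± 0.13) and Eif3a (-0.61 ± 0.10, under 1.5-fold without KO 3 at -0.51) had the smallest p of the lower members.

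Excitatory neurons against interneurons gave 1 higher (20.3% of all genes) and 4 lower members (12.4% of all genes) of 49. Eif4g3 was higher (0.64 ± 0.09, adjusted p = 7.2e-08 by edgeR). Eif4ebp2 was lower (-1.55 ± 0.18, adjusted p = 1.4e-10), although WT 2 interneurons, at 31.1 CPM, lay within the excitatory range and the other 5 mice were at 94 to 142 CPM. Eif4g2 (-0.64 ± 0.08), Eif3e (-0.59 ± 0.11) and Eif4a3 (-0.68 ± 0.13) were also lower. The last 3 fell under 1.5-fold without KO 2 (-0.56, -0.56 and -0.54), Eif3e also without WT 2 (-0.53), and Eif4g3 without KO 3 (0.53). With library sizes left unscaled by TMM, 0 members were called higher and 7 lower.

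The share of Eif4a2 among the UMIs of both helicases varied within and outside the neurons. It was 43.4% ± 4.91 in excitatory neurons and 30.4% ± 3.56 in interneurons, against 12.8% ± 3.26 in Ganglionic cells. Outside the neurons it was 38.7% ± 9.27 in Astrocytes_2, 31.5% ± 6.17 in Astrocytes_1, 29.7% ± 6.67 in OPC_1, 26.8% ± 8.02 in endothelial cells, 20.6% ± 6.48 in pericytes, 14.4% ± 3.6 in oligodendrocytes and 8.56% ± 3.72 in microglia. The microglial mean was the lowest, and its range over mice (4.16% to 13.9%) overlapped those of oligodendrocytes (8.89% to 18%) and Ganglionic cells (7.82% to 17.5%). The Eif4a2 gene overlaps Rfc4, a replication factor gene on the opposite strand, by 194 bases.

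**Figure D3:**
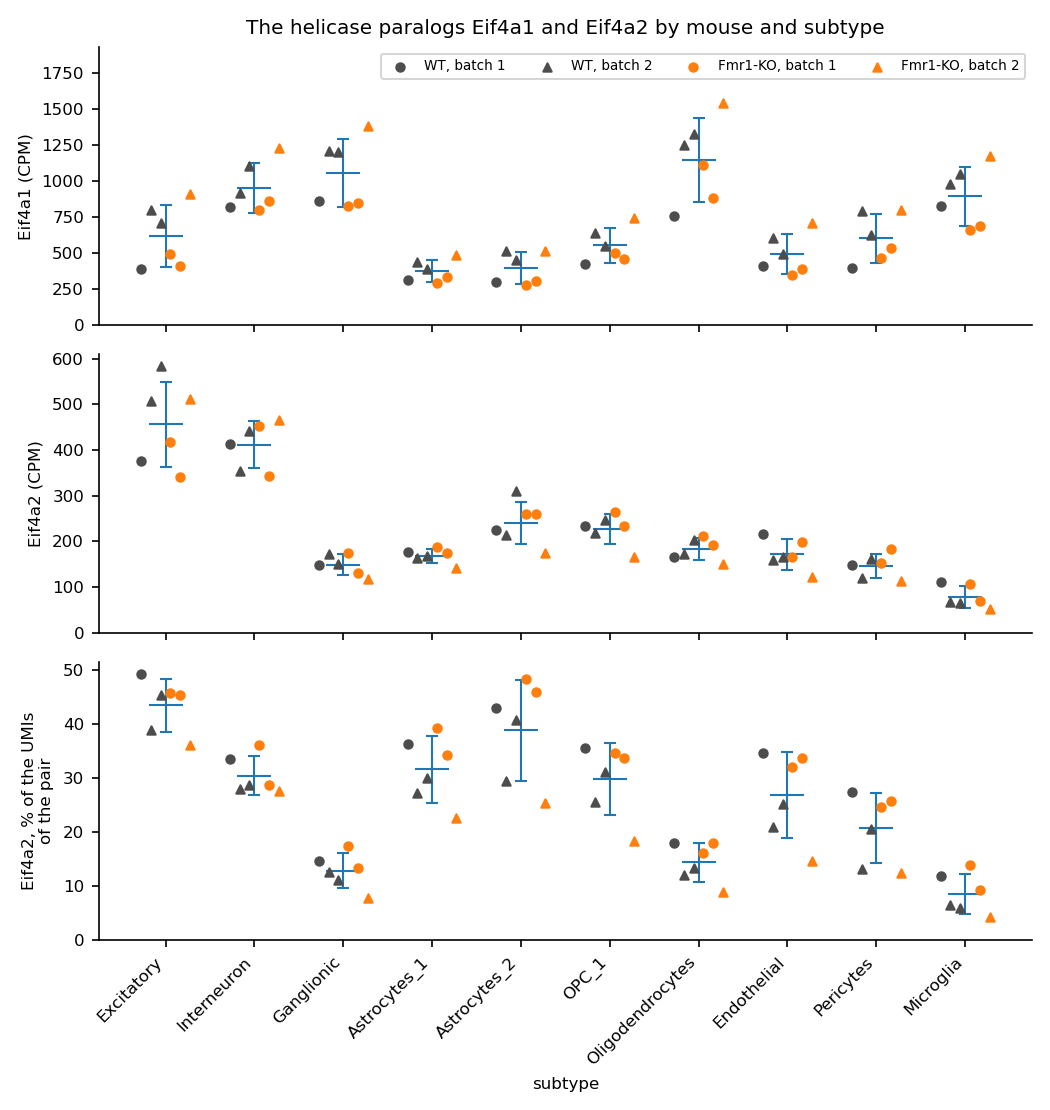
Eif4a1 and Eif4a2 in CPM and the share of Eif4a2 in the UMIs of both, by subtype, 1 point per mouse (grey WT, orange KO, circles batch 1, triangles batch 2) with the mean and SD of 6 mice. Eif4a2 stands at 341 to 583 CPM in excitatory neurons and at 117 to 175 CPM in Ganglionic cells, and the KO 3 mouse has the lowest share in 10 of 10 subtypes.

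In the oligodendrocyte lineage, mature oligodendrocytes had more Eif4a1 than their progenitors OPC_1. It was at 758, 1248 and 1324 CPM in WT and 1112, 881 and 1544 CPM in KO oligodendrocytes, and at 427, 639 and 547 CPM in WT and 502, 463 and 743 CPM in KO OPC_1, with no overlap (1.20 ± 0.10, adjusted p = 1.7e-15 by edgeR). Of 49 members 3 were higher (11.6% of all genes) and 1 lower (15.7% of all genes), with a median of 0.17 against -0.04 for all genes. Eif2b1, a regulatory subunit of eIF2B, was higher (0.79 ± 0.18), as was Eif2s1, the subunit of eIF2 that the kinases phosphorylate (0.65 ± 0.17), and Eif1a was lower (-0.95 ± 0.25). Eif2s1 was not called without KO 3 (0.46) and was lower in oligodendrocytes within batch 1 (-0.14), and Eif1a was not called without WT 3 (-0.73). Without TMM the split was 2 higher and 3 lower, and with thinned cells 1 member was called in place of 4.

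Between the 2 astrocyte subtypes no difference was called. Of 49 members 0 were higher (6.43% of all genes) and 0 lower (8.18% of all genes) in Astrocytes_2, the group with reactive markers, by edgeR. An unadjusted p under 0.05 was found for 17 members, and 9 had an adjusted p under 0.05 with differences below 1.5-fold or an adjusted p above 0.01. Shares of all genes at these thresholds were not taken, so that 17 and 9 have no background here. The smallest p belonged to Eif5, the factor that triggers GTP hydrolysis by eIF2, at 325 ± 27.9 CPM in Astrocytes_2 and 394 ± 42.4 CPM in Astrocytes_1 (-0.46 ± 0.09, adjusted p = 0.0001).

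Endothelial cells and pericytes, the vascular cells, differed with the smallest p in the cap-binding Eif4e3 and in Eif4ebp2, the repressor of eIF4E. Of 49 members 3 were higher (14.7% of all genes) and 2 lower (16% of all genes) in endothelial cells. Eif4e3 (-2.18 ± 0.22, adjusted p = 1.2e-12 by edgeR) and Eif4ebp2 were the lower ones. The latter was at 69.1, 39.7 and 52.1 CPM in WT and 76.7, 75.3 and 43.2 CPM in KO endothelial cells, and at 211, 110.4 and 91.8 CPM in WT and 253, 206 and 133 CPM in KO pericytes, where the batch 1 mice were highest (-1.30 ± 0.18, adjusted p = 6.2e-09). Eif2ak4 (1.41 ± 0.31), Eif1ad (0.67 ± 0.20) and Eif2b5, the catalytic subunit of eIF2B (0.73 ± 0.23), were higher. These calls are less firm. Eif1ad was lost without WT 3 (0.61), KO 1 (0.60) or KO 2 (0.53), Eif2b5 without WT 2 (0.76), WT 3 (0.62) or KO 3 (0.43), and Eif2b5 was lower in endothelial cells within batch 1 (-0.18). Without TMM the split was 1 higher and 3 lower, and with thinned cells 3 members were called in place of 5.

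Microglia had higher levels of many initiation factors than Astrocytes_1, among them all 4 repressors tested. Of 49 members 20 were higher (24.9% of all genes) and 2 lower (28.4% of all genes), and the median was 0.44 for members against -0.05 for all genes. The higher members were 6 of 11 of scanning and eIF2, 1 of 8 of eIF2B and the kinases, 5 of 14 of eIF3, 3 of 10 of the cap complex, 4 of 4 repressors tested and 1 of 2 late factors. Each of the 22 calls had the same direction within both batches by the mean, 17 had it in all 6 mice, and 13 had no overlap of mice. The like counts over all genes called were not made. The eIF2B and kinase genes had 4 estimates above and 4 below 0, with a median of 0.03. Without TMM the split was 14 higher and 3 lower, and with thinned cells 12 members were called in place of 22.

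Eif4a1 had the smallest p, at 829, 978 and 1048 CPM in WT and 659, 689.6 and 1172 CPM in KO microglia against 312, 441 and 393 CPM in WT and 292, 334 and 486 CPM in KO Astrocytes_1 (1.41 ± 0.10, adjusted p = 1.3e-19 by edgeR). Eif3a (1.07 ± 0.10), Eif1a (1.53 ± 0.16) and Eif4b, which stimulates the helicase (1.09 ± 0.12), were next. The lower ones were Eif4a2, at 110.2, 68 and 65.6 CPM in WT and 106, 69.8 and 50.9 CPM in KO microglia (adjusted p = 5.9e-09), and Eif1b (-0.74 ± 0.14, adjusted p = 7.5e-06). Eif1 was higher in microglia (0.61 ± 0.11), in the opposite direction to its paralog Eif1b.

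**Figure D4:**
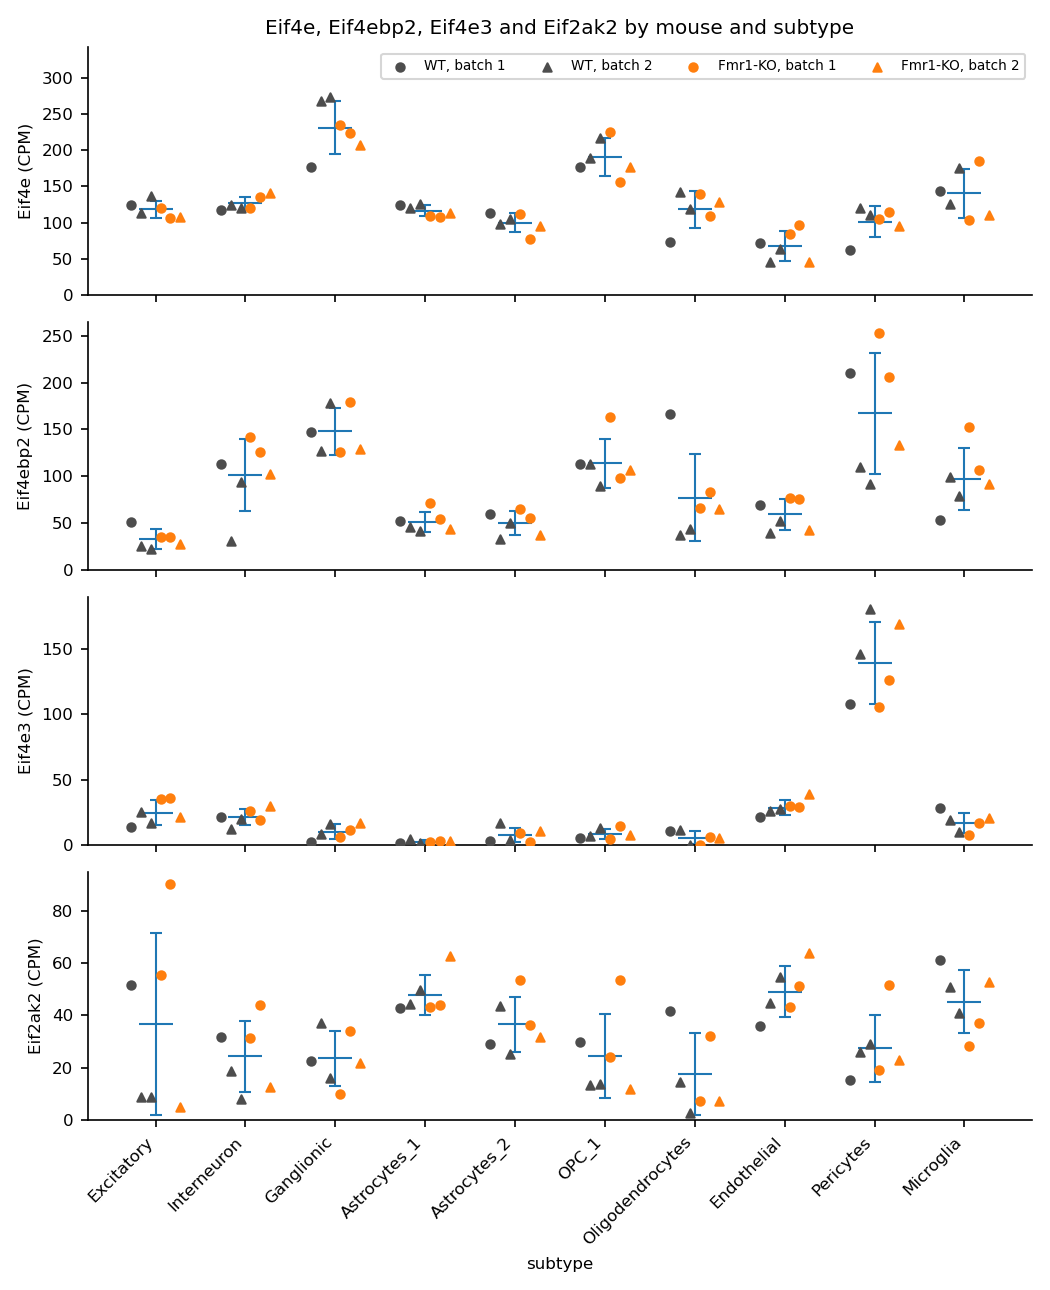
The cap-binding protein gene Eif4e, its repressor Eif4ebp2, the cap-binding Eif4e3 and the kinase Eif2ak2 in CPM by subtype, 1 point per mouse (grey WT, orange KO, circles batch 1, triangles batch 2) with the mean and SD of 6 mice. Pericytes hold Eif4e3 at 105 to 181 CPM, and the circles of Eif2ak2 in excitatory neurons lie above its triangles.

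Genes of neighbouring pathways in the same fits are given as counts against the same background. Between excitatory neurons and Ganglionic cells, where 29.4% of all genes were called higher and 25.3% lower, 2 of 15 tested genes of the integrated stress response were higher and 9 lower, with 6 higher and 1 lower of 20 genes of mTORC1 and its inputs, 2 and 2 of 11 of elongation and termination, and 1 and 4 of 16 partners of the cap and the poly(A) tail. Atf4, the transcription factor whose translation rises when eIF2 is phosphorylated, was at 143 ± 26.2 CPM in excitatory neurons and 403 ± 59.1 CPM in Ganglionic cells (-1.38 ± 0.12). Phgdh, an enzyme of serine synthesis, was at 21.9 ± 11.8 and 214 ± 37.4 CPM (-3.24 ± 0.20). The elongation factor paralog Eef1a2, known from neurons and muscle, was at 391 ± 42.3 CPM in excitatory neurons and 12 ± 13.4 CPM in Ganglionic cells (5.07 ± 0.46).

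The other contrasts moved parts of the same lists. Interneurons against Ganglionic cells gave 1 higher and 9 lower of 15 stress response genes and 1 higher and 5 lower of 11 genes of elongation (17% and 16.8% of all genes were higher and lower). In oligodendrocytes 2 of 16 cap and poly(A) partners were higher than in OPC_1 (11.6% of all genes) and 0 lower, among them Pdcd4, an inhibitor of eIF4A, at 857 ± 309.5 CPM against 83.1 ± 10.8 CPM (3.49 ± 0.14, adjusted p = 4.1e-29 by edgeR). In microglia against Astrocytes_1, 9 of 16 of these partners were higher and 3 lower (24.9% and 28.4% of all genes), with the poly(A)-binding protein gene Pabpc1 at 1968 ± 269 CPM against 448 ± 36.3 CPM (2.30 ± 0.12), and 5 of 11 elongation genes were higher and 0 lower.

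To ask whether loss of FMRP changed these genes, Fmr1-KO and WT mice were compared in 11 populations, the 10 subtypes and the neurons of all subtypes together, with batch as a covariate, for genes that 15% or more of the population's cells had a UMI of. A gene was called at an adjusted p below 0.01 and a difference of 0.20 or more on the log2 scale. Of the 53 members 44 were tested in 1 or more populations and 30 in all 11, and 9 were too sparse for each of them (Eif2ak1, Eif2ak4, Eif2b3, Eif2b4, Eif2d, Eif4e1b, Eif4ebp1, Eif4ebp3 and Eif5a2). In 403 tests 0 members were called by edgeR. DESeq2 also called 0. At an unadjusted p under 0.05 edgeR gave 18 of 403 and DESeq2 4, where edgeR gave 2583 of 42575 over all genes. The share of all genes called was 0% in neurons, excitatory neurons, interneurons, Astrocytes_2, endothelial cells, pericytes and microglia, 0.0499% in Ganglionic cells, 0.0208% in Astrocytes_1, 0.0245% in OPC_1 and 0.0423% in oligodendrocytes. The lowest adjusted p of a member was 0.193, for Eif3g in endothelial cells.

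By population, the members at an unadjusted p under 0.05 numbered 4 of 36 in neurons (16.6% of all genes), 0 of 32 in excitatory neurons (3.48%), 3 of 33 in interneurons (4.53%) and 1 of 39 in Ganglionic cells (6.39%). They numbered 0 of 40 in Astrocytes_1 (4.72%), 0 of 34 in Astrocytes_2 (4.26%), 2 of 36 in OPC_1 (4.24%) and 0 of 40 in oligodendrocytes (4.4%). In the vascular and immune cells they were 4 of 40 in endothelial cells (11%), 1 of 36 in pericytes (3.29%) and 3 of 37 in microglia (3.12%). These shares rest on at most 4 members each. With 3 mice per genotype, the SEs of the members named below were 0.10 to 0.25. Differences of several such errors also stayed uncalled, up to 0.96 for Eif3g in endothelial cells (adjusted p = 0.193 by edgeR). The absence of calls therefore does not exclude changes of that size.

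**Figure D5:**
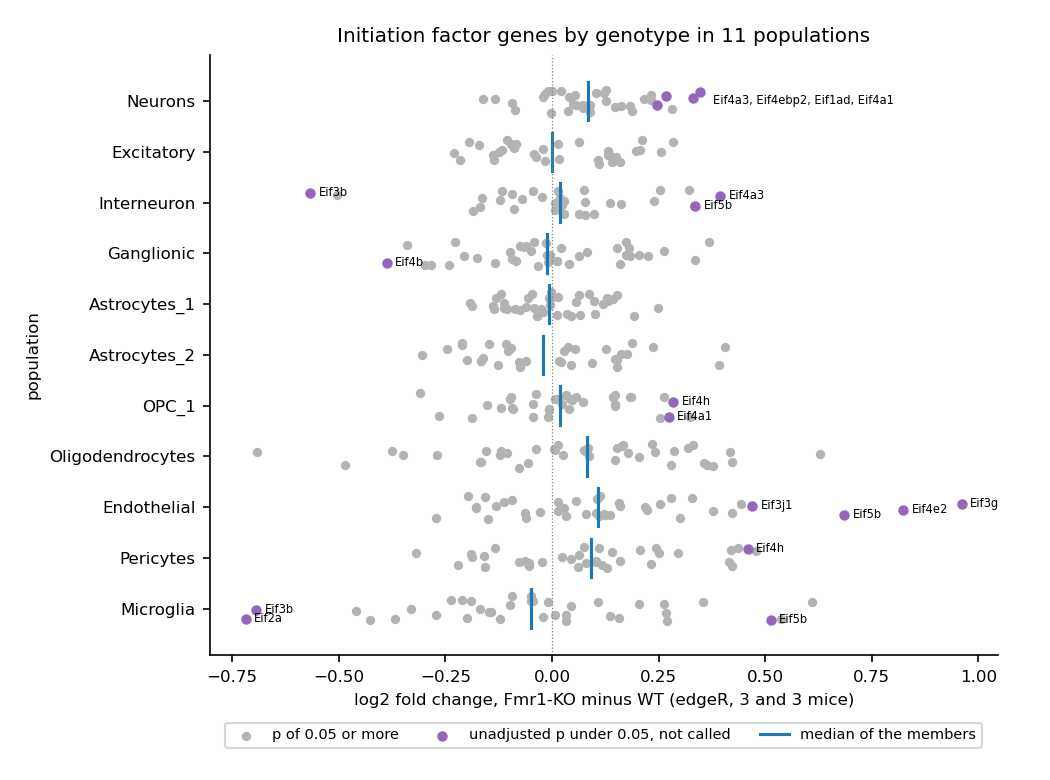
Members (points) by log2 fold change of Fmr1-KO over WT in 11 populations from edgeR with 3 mice per genotype, purple and named where the unadjusted p was under 0.05, with the members' median in blue. No member was called, and the medians lie between -0.05 in microglia and 0.11 in endothelial cells.

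Members lay on both sides of 0 in each population, and in several of them more were higher than lower in KO. In excitatory neurons 16 of 32 members were higher in KO, with a median of 0.00 and a range of -0.23 to 0.28, a count that was 9 of 32 without the batch term and 9 of 32 with the replicate block. In Astrocytes_1, the largest subtype, 17 of 40 were higher in KO with a median of -0.01. In neurons 28 of 36 members were higher in KO, with a median of 0.08, in endothelial cells 28 of 40 with a median of 0.11, in pericytes 24 of 36 with a median of 0.09 and in oligodendrocytes 26 of 40 with a median of 0.08, a count that was 17 of 40 with thinned cells. In interneurons 21 of 33 were higher in KO, in OPC_1 21 of 36, in Astrocytes_2 17 of 34, in Ganglionic cells 17 of 39 and in microglia 15 of 37. Over all genes the share that was higher in KO was 49.8% in neurons, 49.9% in endothelial cells, 49.8% in pericytes and 50.4% in oligodendrocytes. Over the 11 populations that share lay between 49.3% in microglia and 51.8% in Astrocytes_1. Neurons of KO mice held more Ganglionic cells, 18.5%, 23.5% and 22.2% of the neurons in KO 1 to 3 against 10.9%, 13.2% and 12.3% in WT 1 to 3, and the part of this mix in the values for all neurons was not tested. Within excitatory neurons, interneurons and Ganglionic cells the medians were 0.00, 0.02 and -0.01.

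The neuronal member with the smallest p was Eif4a3, at 84.1, 119.5 and 127 CPM in WT and 119, 118 and 143 CPM in KO neurons (0.35 ± 0.11, unadjusted p = 0.012 and adjusted p = 0.201 by edgeR). The genotypes overlapped. It lost the unadjusted threshold without WT 1 (0.21). Eif4a1 followed, at 594, 849 and 802 CPM in WT and 689, 637 and 1040.0 CPM in KO (0.25 ± 0.10, unadjusted p = 0.0297 by edgeR), and was at 0.17 without KO 3. In interneurons Eif3b was at 98.4, 99.5 and 66.6 CPM in WT and 51.8, 51.6 and 74.4 CPM in KO (-0.57 ± 0.24, unadjusted p = 0.0323 by edgeR), and without WT 1 the difference was -0.04. Eif4a3 in interneurons (0.39 ± 0.19) and Eif4b in Ganglionic cells (-0.39 ± 0.17, and -0.16 without WT 1) had unadjusted p of 0.049 and 0.0316 by edgeR.

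In endothelial cells the 4 members below the unadjusted threshold were all higher in KO. Eif3g, an eIF3 subunit of scanning, was at 57, 63.9 and 70 CPM in WT and 82.6, 65.8 and 143 CPM in KO (0.96 ± 0.23, unadjusted p = 0.000489 by edgeR). The value of KO 3 stood far above the other 5, and without it the difference was 0.34 with an unadjusted p of 0.384 by edgeR. Eif4e2 was at 36, 82.9 and 70 CPM in WT and 74.8, 68.1 and 118 CPM in KO (0.82 ± 0.21, unadjusted p = 0.00108 and adjusted p = 0.219 by edgeR). In pericytes Eif4h, a partner of the helicase, was at 205, 341 and 280.0 CPM in WT and 210.3, 298 and 453 CPM in KO (0.46 ± 0.20), and at 0.29 without KO 3.

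In microglia Eif3b was at 139, 104 and 109 CPM in WT and 106, 82.1 and 59 CPM in KO (-0.69 ± 0.25, unadjusted p = 0.0113 and adjusted p = 0.999 by edgeR). Eif5b, the GTPase that joins the ribosomal subunits, was at 171, 235 and 202 CPM in WT and 251, 222 and 311 CPM in KO microglia (0.51 ± 0.20, unadjusted p = 0.017 by edgeR). In OPC_1 Eif4h (0.28 ± 0.11) and Eif4a1 (0.27 ± 0.11) had unadjusted p of 0.019 and 0.0284 by edgeR, and both were higher in KO 3 than in any other mouse. Without KO 3 the differences were 0.19 and 0.17.

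Whether the genotype difference itself varied between neuron subtypes was tested in 1 fit of excitatory neurons, interneurons and Ganglionic cells with the mouse as a block, over 31 members and 2389 genes. By edgeR 0 members were called in each of the 3 pairs (0% of all genes in each pair). An unadjusted p under 0.05 was found for 0 members in interneurons minus excitatory neurons (2.13% of all genes), 0 in Ganglionic cells minus excitatory neurons (3.56%) and 2 in Ganglionic cells minus interneurons (2.64%). The last were the eIF3 subunits Eif3b (0.80 ± 0.29, unadjusted p = 0.0122 by edgeR) and Eif3l (0.76 ± 0.31, unadjusted p = 0.0221 by edgeR), with Eif3e next (-0.48). In Ganglionic cells minus excitatory neurons Eif3e (-0.50), Eif1 (0.33) and Eif4a3 (0.35) came first, and in interneurons minus excitatory neurons Eif3l (-0.60), Eif3b (-0.57) and Eif4a3 (0.53). By edgeR 0 genes of the 4 neighbouring pathway lists were called by genotype in any of the 11 populations.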

How the data were processed

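Cells of the P5 cortex of 3 WT and 3 Fmr1-KO mice were profiled by InDrop in 17 libraries. The UMI counts deposited by the authors are raw. Per the study's methods and the submitters' processing notes, reads were demultiplexed with bcl2fastq, aligned to mm10 with TopHat2 2.0.14 and counted per RefSeq gene with ESAT without reads of several positions, UMIs were merged, and barcodes under 700 UMIs, erythrocytes and part of the doublets were removed. The deposited metadata give the mouse, subtype and doublet marks of each cell, which were used here. Whether counting used strand was not given in the sources used here, and 13 of the 53 members overlap another protein-coding gene, 11 of them on the opposite strand.

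Counts were summed per mouse and population, since mice are the replicates, and tested with edgeR 4.0.16 (R 4.3.3, glmQLFit and glmQLFTest, TMM) over all genes that passed the filters, with Benjamini-Hochberg adjustment within each population or contrast. Genotype fits used batch as a covariate and genes with a UMI in 15% or more of the cells. Contrasts used the mouse as a block and genes whose share of cells with a UMI averaged 5% or more over 10 subtypes, 49 of the members. Levels are CPM with mean and SD over mice with 10 or more cells. The sums behind the tested subtypes held 96331 to 11155033 UMIs per mouse. Scripts were tested on simulated data with known changes. Alternatives were no batch term, a replicate block, no TMM, DESeq2 1.42.0, other filters on low counts, cells thinned to 700 UMIs, other folds, WT mice only, batch by subtype terms and leaving out each mouse. Keeping 1 copy per mouse and barcode was added after seeing the data.

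The members and the lists were chosen with earlier results of these data known. Named with values are the paralog sets, up to 4 called members per direction and contrast, up to 2 members per population with the smallest unadjusted p and the same sign in both batches, up to 3 per pair of neuron subtypes, the most and least abundant members, called pathway genes and Fmr1. Examples of pathway genes, Eif5 in astrocytes and values by batch were chosen after their values were seen. Promoter windows and gene positions came from RefSeq and GENCODE for GRCm38.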

Additional observations from a re-analysis of the deposited data

How the results depend on the processing

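The count of members called by genotype, 0, and of members called for a difference between neuron subtypes, 0, was the same in every alternative run. Members at an unadjusted p under 0.05, 18 of 403, numbered 1 without the batch term, 7 with the replicate block in place of batch, 4 by DESeq2, and 11 to 29 when 1 mouse was left out (11 without WT 3, 29 without WT 1). Same-numbered mice deviated together in pairs 1 and 3, which each share a batch (r = 0.78 and 0.80 in neurons). Pair 2 is split over the batches, and its correlation was negative in all 11 populations, from -0.53 in excitatory neurons to -0.06 in pericytes. WT 1 also correlated with KO 2 of its batch (0.68 in neurons). Deviations were taken from the mean of the 3 mice of each genotype, so that these correlations depend on one another. Whether the deviations followed batch was not tested. All genes called numbered 6, 259 with no filter on low counts, 23 by DESeq2, 2 with the replicate block, 1 without batch, 1 with thinned cells and 2 to 13 without 1 mouse. In Ganglionic minus excitatory, Eif4a3 reversed to -0.21 with thinned cells, and the cause was not tested.

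Over the alternatives, the named differences between subtypes kept their call 369 times, lost it with the same sign 73 times and reversed 0 times. Members called were fewer with cells thinned to 700 UMIs, 11 in place of 23 for Excitatory minus Ganglionic, 3 in place of 11 for Interneuron minus Ganglionic, 1 in place of 4 for Oligodendrocytes minus OPC_1, 3 in place of 5 for Endothelial minus Pericytes and 12 in place of 22 for Microglia minus Astrocytes_1. Thinning lowers the counts of every gene, and the calls over all genes are not given beside these. At 2-fold or more the members called numbered 5, 2, 1, 3 and 8 in these contrasts and 1 in place of 5 for Excitatory minus Interneuron. In WT mice alone they numbered 7 for Interneuron minus Ganglionic, 1 for Excitatory minus Interneuron, and 2 each for Oligodendrocytes minus OPC_1 and Endothelial minus Pericytes. Without TMM 1 was called for Astrocytes_2 minus Astrocytes_1. Leaving out 1 mouse gave 21 to 27, 9 to 13, 3 to 7, 3 to 6, 0, 3 to 7 and 19 to 23 in the order of the report. With 1 copy per mouse and barcode, chosen after seeing the data, they numbered 21, 12, 4, 4, 0, 6 and 21, with 0 called by genotype and 19 at an unadjusted p under 0.05. Without TMM the median of all genes moved from -0.04 to -0.21 for Oligodendrocytes minus OPC_1, -0.01 to 0.19 for the astrocytes, -0.02 to -0.14 for Endothelial minus Pericytes and -0.05 to -0.18 for Microglia minus Astrocytes_1.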

Other observations

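Some members had their extreme in subtypes too small for the tests. In Cajal-Retzius cells, the early-born neurons of the outermost cortical layer, Eif4a2 was at 1050.1 ± 211 CPM and Eif4a1 at 438 ± 125 CPM (n = 5 mice with 10 or more cells), so that Eif4a2 exceeded Eif4a1. In SVZ cells, the migrating neurons of the subventricular zone, Eif4a2 was at 519 ± 176 CPM and Eif4a1 at 571 ± 144 CPM (n = 4). Ependymal cells had Eif4a1 at 136 ± 45.9 CPM (n = 6), below its 376 CPM in Astrocytes_1, the lowest of the 10 larger subtypes, and Eif4a2 at 234 ± 81.9 CPM. Eif5a2 was highest in Cajal-Retzius cells, at 30.6 ± 13.4 CPM. In the group labelled OPC_2, all members summed to 10664 ± 1319.8 CPM (n = 5), next to Ganglionic cells. These values were not tested.

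The KO 3 mouse had the lowest share of Eif4a2 among the UMIs of Eif4a1 and Eif4a2 in 10 of 10 subtypes. Among the 18 genotype differences of members with an unadjusted p under 0.05, KO 3 had the highest of the 6 values in 12. KO 1 and KO 2 had it in 1 each, WT 1 in 3, WT 2 in 1 and WT 3 in 0. These differences were picked by genotype and most were higher in KO, so that a KO mouse was favoured by the choice. The same count over all genes was not made.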
